A study of Mus musculus with 7 samples.

Results

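The genes described here encode proteins of calcium release, calcium entry and calcium sensing, and their transcripts were followed through mouse oocyte maturation. The 10 members, taken by gene symbol, were the IP3 receptor genes Itpr1, Itpr2 and Itpr3, the pump genes Atp2a2 and Atp2b1, the store-operated entry genes Stim1 and Orai1, the channel genes Trpm7 and Cacna1h, and the kinase gene Camk2g. They are 10 of the 25912 entries listed per library. Smart-seq2 profiles of 10 pooled oocytes each were available for 2 libraries of GV (germinal vesicle, immature) oocytes, 3 libraries of MII (metaphase II, mature) oocytes cultured with the solvent DMSO, and 2 libraries of MII oocytes cultured with BYBX. BYBX is a small molecule that binds and stabilizes RNA G-quadruplexes (rG4s), folds formed by guanine-rich RNA. The oocytes came from hormone-primed C57BL/6 females of 4 weeks of age and were cultured outside the follicle. The labels list the genotype of GV and of MII with DMSO as Control and that of MII with BYBX as Treat, and no edited allele is named for any group. They give the GV treatment as NO, whereas the study's methods name only DMSO or BYBX for these libraries, and the BYBX dose, the hours of culture and any selection of BYBX-treated oocytes by polar body extrusion are not given in the labels. Nothing states that replicate pools came from separate mice or days, so p-values measure only the spread between these libraries.

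A fertilized mammalian egg is activated by repeated rises of cytosolic calcium. The sperm's phospholipase C zeta produces IP3, which opens IP3 receptors in the endoplasmic reticulum (ER) and lets calcium out of the store. The SERCA pump refills the store, a plasma membrane pump removes calcium from the cell, and entry from outside sustains the rises. In many cells entry is arranged by STIM proteins, which sense an empty ER, and by ORAI channels, whereas TRPM7 and the T-type channel CaV3.2 are known routes in mouse eggs.

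The deposited values were FPKM (fragments normalized to transcript length and library size) that the authors had scaled to an ERCC spike-in. Totals were 402113 to 489569 FPKM in GV, 109732 to 127254 FPKM in MII with DMSO and 201482 to 246710 FPKM in MII with BYBX, and the read depth behind a value is unknown. In such pools fewer cells and less RNA per cell cannot be told apart. Reverse transcription started from oligo-dT, so a shorter poly(A) tail and a loss of the transcript cannot be told apart either. The 12 oocyte markers were above 0 in every library, with summed levels of 13503 to 16440, 2918 to 3775 and 6970 to 8659 FPKM in the same order of groups. The 20 markers of granulosa and cumulus cells, the follicle cells around the oocyte, summed to 11.3 to 20.6, 2.55 to 2.93 and 4.65 to 5.48 FPKM. Of these markers 3, 4 and 3 were at 0 in every library of the group, among them Ptx3 and Vcan. The highest GV means were those of Nr5a2 (3.84 FPKM), Inha (3.71 FPKM) and Cyp19a1 (3.34 FPKM), above the members Itpr1 (2.82 FPKM) and Cacna1h (2.79 FPKM). The same 3 markers averaged 0.298, 0.167 and 1.48 FPKM with DMSO, and 1.40, 0.169 and 1.61 FPKM with BYBX. The sum of the 20 markers moved in the same direction as the members, and its part in their changes was not tested. Erythrocyte markers summed to at most 1.20 FPKM.

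On GRCm38 (mm10) the annotation places Itpr1 at chr6:108213096-108551109 on the plus strand and Itpr2 at chr6:146108299-146502223 on the minus strand. Orai1 lies at chr5:123015074-123030456 (plus) and Atp2a2 close to it at chr5:122453513-122502225 (minus). Itpr3 lies at chr17:27057304-27122223 (plus), Cacna1h at chr17:25374285-25433783 (minus), Atp2b1 at chr10:98914406-99026143 (plus) and Stim1 at chr7:102267806-102437319 (plus). Trpm7 spans chr2:126791565-126876230 (minus) and Camk2g chr14:20734875-20794088 (minus). Because BYBX binds rG4s, the longest annotated coding transcript of each member was searched on its own strand for 4 runs of GGG with gaps of 1 to 7 N. The letters matched in 4 of 10 members, against 18.6% of the tested genes with a coding transcript. The median transcript of those genes was 2995 bases long, and Orai1 (1875 bases) was the only member with a shorter one. The matched stretches are shown because they are the stretches of these transcripts that the search defines as possible rG4s, with runs of at least 3 G in capitals.
Orai1 (3′ UTR, transcript positions 1330 to 1351): GGGGGGtGGGGcGGGGaatGGG
Stim1 (3′ UTR, positions 4209 to 4232): GGGcctGGGttGGGtgcagctGGG
Itpr2 (5′ UTR, positions 55 to 81): GGGacgcagaGGGctcgcGGGccaGGG
Cacna1h (5′ UTR, positions 192 to 211): GGGtGGGccGGGGGcgcGGG
Positions count from 1 at the transcript's 5′ end. The Orai1 and Stim1 matches lie behind the coding sequence, and those of Itpr2 and Cacna1h lie in front of it. Both annotated coding transcripts of Orai1 held a match, as did 2 of 4 for Stim1, 1 of 4 for Itpr2 and 3 of 5 for Cacna1h. Among tested genes with transcripts of like length the share with a match was 13.7% for Orai1, 22.0% for Stim1, 33.7% for Itpr2 and 30.5% for Cacna1h. For the 6 members without a match that share ran from 20.5% (Camk2g) to 31.1% (Atp2b1). A match describes the letters only, since folding was not measured in these libraries.

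Transcripts of the 10 members summed to 268 and 265 FPKM in GV, to 55.2, 56.6 and 71.0 FPKM in MII with DMSO and to 146 and 130 FPKM in MII with BYBX. Their total therefore lay lowest in the control MII libraries and in between with BYBX, with no overlap between groups, as did the library totals. Of the library total the members made up 0.0547% and 0.0658% in GV, 0.0503%, 0.0458% and 0.0558% in MII with DMSO and 0.0592% and 0.0648% in MII with BYBX. By this share GV overlapped both MII groups, and the BYBX libraries lay above the DMSO libraries. A mean over the 3 groups of 1 FPKM or more was required for testing, which 8 members met, whereas Itpr3 and Stim1 lay below that level. In limma on log2(FPKM + 1), with Benjamini-Hochberg adjustment over 9202 entries, 7 of the 8 had fallen in MII with DMSO relative to GV, beside 88.3% of all entries tested. With BYBX, 5 of the 8 were higher than with DMSO (65.2% of all entries), and 4 of the 8 remained lower than in GV (69.2% of all entries). The estimates of the remaining members had the same sign in each comparison without passing the threshold. The medians of the 8 were -1.52, 0.72 and -0.72 on the log2 scale, beside -1.83, 0.84 and -0.99 for all entries, in the same order of comparisons.

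**Figure D1:**
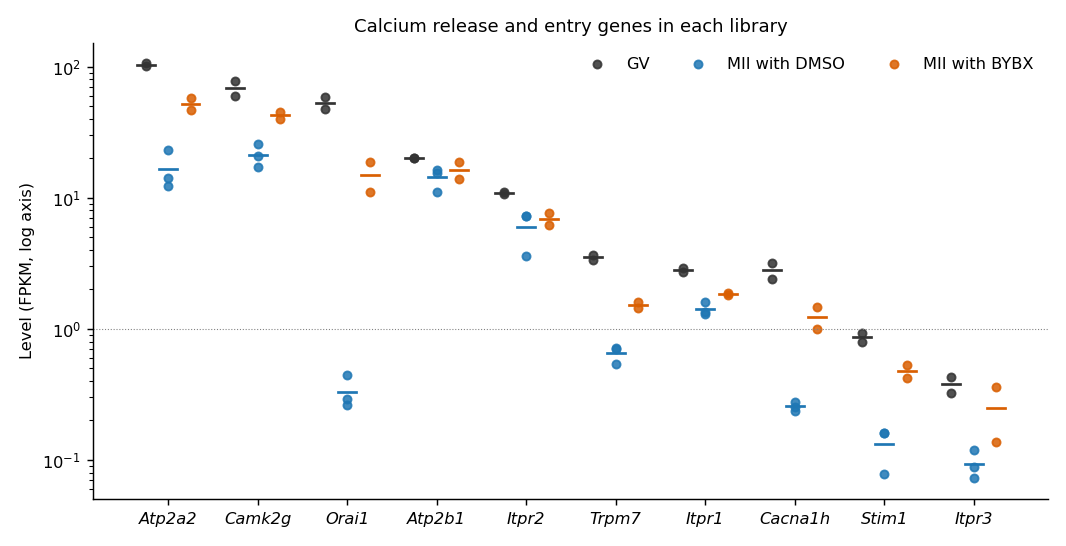
FPKM of each of the 10 genes (log axis) in the 2 GV libraries, the 3 MII libraries with DMSO and the 2 MII libraries with BYBX. Points are libraries, short bars are group means and the dotted line marks 1 FPKM; Orai1 shows the widest gap, from 52.9 FPKM in GV to 0.3325 FPKM in MII with DMSO, while the Atp2b1 points of both MII groups overlap.

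These directions rest on the spike-in scaling. When each library was rescaled to the same total FPKM, 3 of the 8 members were called higher and 3 lower in control MII oocytes relative to GV, beside 23.3% and 49.5% of all entries. From DMSO to BYBX 3 rose and 1 fell, beside 39.9% and 8.22% of all entries. When libraries were centred on their median log2 level, the counts were 6 higher and 1 lower for the first comparison (48.8% and 26.7% of all entries) and 1 higher and 5 lower for the second (18.4% and 43.9% of all entries). Orai1 was the member whose fall in MII with DMSO and whose rise with BYBX were called under each of these 3 scalings.

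The IP3 receptor genes, whose products form the ER release channel, included Itpr1 and Itpr2, which with Atp2b1 kept the largest shares of their GV level in MII with DMSO. Itpr1 encodes the receptor type that is best known in mammalian eggs. It stood at 2.93 and 2.71 FPKM in GV, at 1.30, 1.61 and 1.36 FPKM in MII with DMSO and at 1.83 and 1.87 FPKM in MII with BYBX. The 3 groups did not overlap. MII with DMSO held 50.4% of the GV level and MII with BYBX 65.4%. On the log2(FPKM + 1) scale the change of Itpr1 from GV to MII with DMSO was -0.66 (SE 0.19, limma adjusted p = 0.0049). The BYBX libraries were above the DMSO libraries by 0.24 (95% interval -0.17 to 0.64, limma adjusted p = 0.28), which did not pass the threshold of 0.05. Their difference from GV, -0.42, did not pass it either (limma adjusted p = 0.082).

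Itpr2, a second receptor gene with higher affinity of its product for IP3, had the highest level of the family in every library. Its values were 10.7 and 11.1 FPKM in GV, 3.56, 7.27 and 7.22 FPKM in MII with DMSO and 7.67 and 6.17 FPKM in MII with BYBX. Both MII groups lay below GV and overlapped each other, and DMSO library 1 held the lowest value of the 7. The fall of Itpr2 from GV to MII with DMSO was -0.81 (SE 0.28, limma adjusted p = 0.016), and its adjusted p rose to 0.080, 0.087 and 0.096 when GV library 1, GV library 2 or DMSO library 1 was left out. The difference between BYBX and DMSO was 0.22 (95% interval -0.39 to 0.83, limma adjusted p = 0.50). Without DMSO library 1 that difference was -0.06.

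Itpr3 was the least abundant member in all 3 groups. It was listed at 0.432 and 0.321 FPKM in GV, at 0.0726, 0.0881 and 0.118 FPKM in MII with DMSO and at 0.358 and 0.136 FPKM in MII with BYBX. The DMSO libraries were lowest without overlap, and the BYBX libraries ran from near the DMSO range into the GV range. In a fit without a filter on level, Itpr3 changed by -0.33 from GV to MII with DMSO (limma adjusted p = 0.013), and at such levels the pseudocount of 1 FPKM compresses the change. The same fit gave 0.19 for BYBX against DMSO (limma adjusted p = 0.15). An antisense gene, Itpr3os, is annotated over this locus, and the Smart-seq2 protocol does not mark strand, so reads of the pair cannot be told apart.

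Within each library the share of a member in its own gene family does not depend on the scaling. Itpr2 made up 77.2% ± 1.74 (SD, n = 2) of the IP3 receptor FPKM in GV, 78.8% ± 5.79 (SD, n = 3) in MII with DMSO and 76.7% ± 1.67 (SD, n = 2) in MII with BYBX. The DMSO libraries were at 72.2%, 81.1% and 83.0%. Itpr1 made up 20.1%, 19.96% and 20.7% in the same order, with overlapping libraries in each comparison. The mix of receptor transcripts thus held nearly the same mean proportions of Itpr1 and Itpr2 in the 3 groups, whereas the Itpr3 share was 2.68%, 1.27% and 2.65%. Exact two-sided permutation tests cannot give a p under 0.1 for 2 against 3 libraries or under 0.3333 for 2 against 2, and the smallest adjusted p over 30 share tests was 0.3333.

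Atp2a2 encodes SERCA2, the pump that returns calcium to the ER, and was the most abundant member in GV. It stood at 101 and 106 FPKM in GV, at 12.3, 14.0 and 23.3 FPKM in MII with DMSO and at 57.6 and 46.6 FPKM in MII with BYBX. The groups were separate, with the control MII libraries at 16.0% of the GV mean and the BYBX libraries at 50.4%. The change of Atp2a2 was -2.62 (SE 0.29, limma adjusted p = 1.1e-06) from GV to MII with DMSO and 1.64 (SE 0.29, limma adjusted p = 2.4e-04) from DMSO to BYBX. Against GV the BYBX libraries were lower by -0.98 on the log2 scale (limma adjusted p = 0.014), a call that was lost without GV library 1, GV library 2 or BYBX library 2 (adjusted p = 0.068, 0.068 and 0.086). The other SERCA genes, Atp2a1 and Atp2a3, were listed at 0 or next to it.

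Atp2b1 encodes the plasma membrane pump PMCA1, which exports calcium, and changed little beside the store pump. The values of Atp2b1 were 19.99 and 19.98 FPKM in GV, 11.1, 15.4 and 16.4 FPKM in MII with DMSO and 18.8 and 13.9 FPKM in MII with BYBX. All MII libraries lay below both GV libraries, and the 2 MII groups overlapped. The difference of MII with DMSO from GV was -0.47 (95% interval -1.04 to 0.09, limma adjusted p = 0.099), and that of BYBX from DMSO was 0.19 (95% interval -0.37 to 0.75, limma adjusted p = 0.53). Among all entries 90.8% had a lower log2 change than Atp2b1 between GV and MII with DMSO. The BYBX libraries differed from GV by -0.29 (limma adjusted p = 0.38).

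The ratio of the pump transcripts in a library moved accordingly. Atp2a2 over Atp2b1 was 5.04 and 5.30 in GV, 1.11, 0.912 and 1.42 in MII with DMSO and 3.06 and 3.36 in MII with BYBX, with no overlap between groups. The store pump thus exceeded the export pump in transcript level in GV and with BYBX, whereas in control MII oocytes the levels of both overlapped. Among other export pump genes, Atp2b3 stood at 1.69 FPKM in GV, 0.082 FPKM in MII with DMSO and 0.743 FPKM in MII with BYBX. Atp2b4 stood at 0.628, 0.602 and 0.750 FPKM, with overlapping libraries.

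Orai1 encodes the pore subunit of the store-operated calcium channel and had the steepest course of the 10 genes. It stood at 47.5 and 58.3 FPKM in GV, at 0.263, 0.289 and 0.446 FPKM in MII with DMSO and at 10.97 and 18.7 FPKM in MII with BYBX. The lowest BYBX library was therefore far above the highest DMSO library and far below the lowest GV library. Group means were 52.9 ± 7.68 (SD, n = 2), 0.3325 ± 0.0988 (SD, n = 3) and 14.8 ± 5.43 FPKM (SD, n = 2), which puts control MII 159-fold below GV and BYBX-treated MII 44.5-fold above control MII. MII with DMSO held 0.628% of the GV level, and MII with BYBX held 28.0%.

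On the log2 scale with 1 FPKM added, on which changes of genes near 0 appear too small, Orai1 fell by 5.33 from GV to MII with DMSO (SE 0.26, limma adjusted p = 5.7e-10). That fall ranked at place 234 among 9202 entries. The rise of Orai1 with BYBX over DMSO was 3.53 (SE 0.26, limma adjusted p = 1.3e-07), larger than the change of 97.5% of the entries. Against GV the log2 change of Orai1 with BYBX was -1.81 (SE 0.28, limma adjusted p = 1.5e-04). With libraries at the same total FPKM the changes of Orai1 were -4.17, 3.32 and -0.84 for the 3 comparisons, and with median centring -3.03, 2.25 and -0.78. The first and second of these passed the threshold under both scalings, and the third did not (adjusted p = 0.099 and 0.076).

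**Figure D2:**
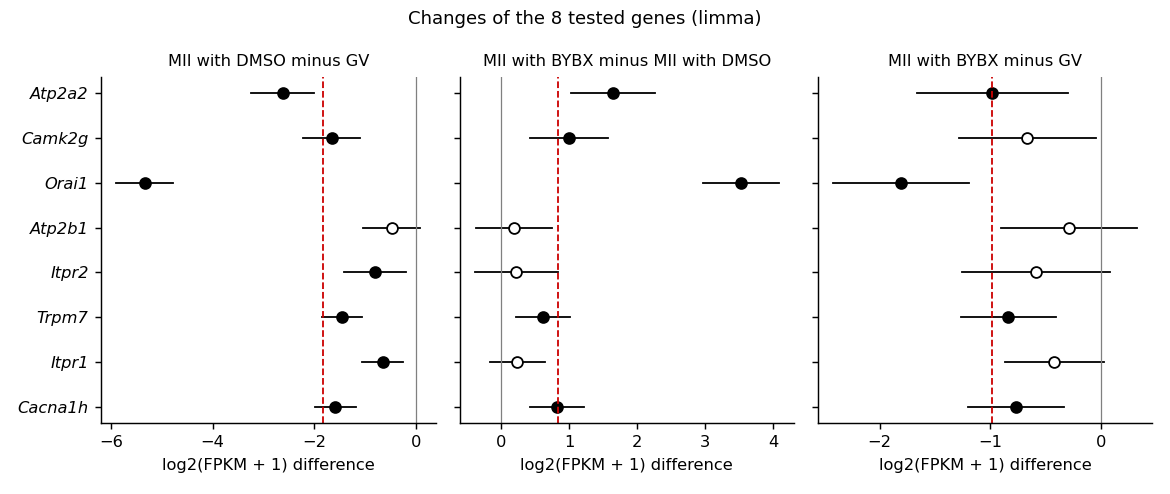
Change of log2(FPKM + 1) for the 8 tested genes in 3 comparisons (x axis), with 95% intervals from limma. Filled points passed an adjusted p of 0.05, the grey line marks 0 and the dashed red line the median of 9202 entries; Orai1 lies outside the other genes in the first panel (-5.33) and in the second (3.53).

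Orai1 also changed its place within the family. It made up 96.0% and 98.8% of the Orai1, Orai2 and Orai3 FPKM in the GV libraries, 35.7%, 16.2% and 47.0% in MII with DMSO and 90.8% and 95.7% in MII with BYBX. Orai3, another pore subunit gene, was at 1.32 ± 0.890 FPKM (SD, n = 2) in GV, 0.781 ± 0.614 (SD, n = 3) in MII with DMSO and 0.947 ± 0.233 (SD, n = 2) in MII with BYBX. Its libraries overlapped in every comparison, with limma adjusted p = 0.21 between GV and MII with DMSO and 0.58 between DMSO and BYBX for Orai3. Orai2 was at 0.0637 FPKM or below in every library. The Orai1 share differed by -64.5 percentage points between MII with DMSO and GV, and the exact permutation p of 0.1 is the smallest that 2 against 3 libraries can give (adjusted p = 0.3333).

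Stim1 encodes an ER calcium sensor that opens ORAI channels, and it was scarce. It stood at 0.924 and 0.797 FPKM in GV, at 0.161, 0.0780 and 0.160 FPKM in MII with DMSO and at 0.422 and 0.532 FPKM in MII with BYBX. The groups were separate in the same order as for Orai1, at 15.5% and 55.5% of the GV level. In the fit without a filter on level, Stim1 changed by -0.72 from GV to MII with DMSO (limma adjusted p = 3.0e-04) and by 0.38 from DMSO to BYBX (limma adjusted p = 0.011).

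Stim2, the other ER sensor gene, was the more abundant of the pair in every library. It was at 9.72 ± 2.02 FPKM (SD, n = 2) in GV, 1.70 ± 0.305 (SD, n = 3) in MII with DMSO and 3.54 ± 1.33 (SD, n = 2) in MII with BYBX. Its log2 changes were -1.98 (limma adjusted p = 3.9e-06) for Stim2 between GV and MII with DMSO and 0.73 (limma adjusted p = 0.020) between DMSO and BYBX. Stim1 made up 8.21%, 7.54% and 12.8% of the pair on average, with overlapping libraries in each comparison. The BYBX libraries were at 8.61% and 17.0%, and the DMSO libraries at 10.7%, 3.92% and 8.02%. Sensor and channel transcripts stood in another proportion in control MII oocytes, since Stim2 over Orai1 was 0.235 and 0.142 in GV, 5.12, 6.60 and 4.12 in MII with DMSO and 0.408 and 0.139 in MII with BYBX. Stim2 was thus below Orai1 in GV and with BYBX, and above it in each DMSO library.

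**Figure D3:**
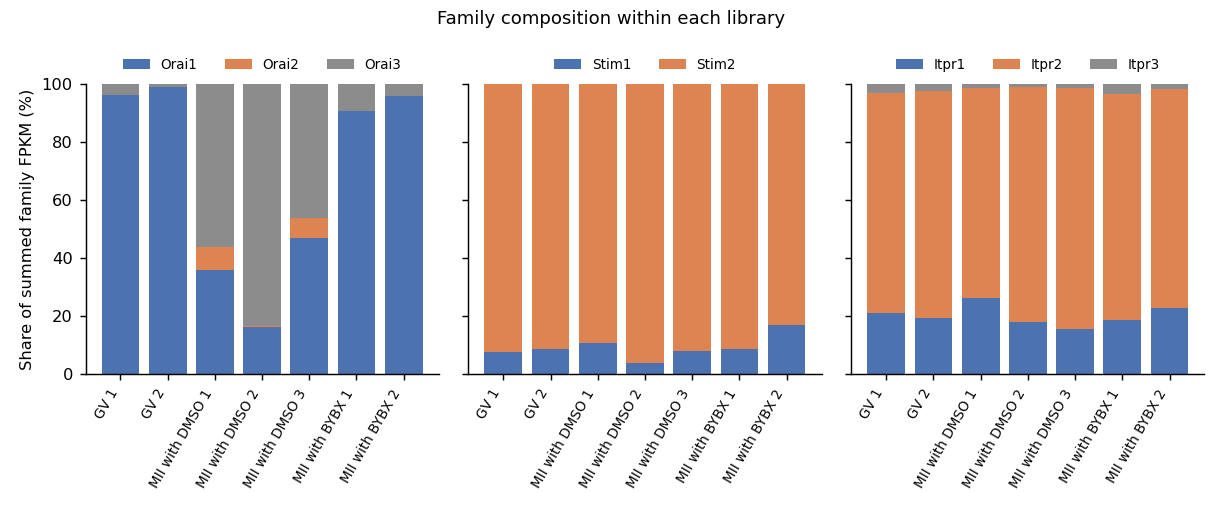
Share of the summed FPKM (percent, y axis) of the Orai, Stim and Itpr families taken by each gene in each of the 7 libraries (x axis). Orai1 takes 90.8% or more in GV and BYBX-treated libraries and 47.0% or less in MII with DMSO, whereas Stim2 and Itpr2 lead their families in every library.

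Trpm7 encodes a divalent cation channel fused to a kinase. Its values were 3.69 and 3.36 FPKM in GV, 0.712, 0.542 and 0.708 FPKM in MII with DMSO and 1.61 and 1.45 FPKM in MII with BYBX, so that the groups were separate. The DMSO libraries held 18.5% and the BYBX libraries 43.4% of the GV level. The changes of Trpm7 were -1.45 (SE 0.18, limma adjusted p = 4.0e-06) from GV to MII with DMSO, 0.61 (SE 0.18, limma adjusted p = 0.0093) from DMSO to BYBX and -0.84 (limma adjusted p = 0.0023) from GV to BYBX. Without DMSO library 2 the second of these had an adjusted p of 0.054. Trpm6, the related channel kinase gene, was lower throughout, at 0.669, 0.042 and 0.240 FPKM.

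Cacna1h encodes the pore of the T-type channel CaV3.2. It stood at 3.18 and 2.40 FPKM in GV, at 0.255, 0.235 and 0.277 FPKM in MII with DMSO and at 1.46 and 0.997 FPKM in MII with BYBX. These groups did not overlap, and the DMSO libraries held 9.17% of the GV level, the lowest share after Orai1, against 44.0% with BYBX. Cacna1h changed by -1.59 (SE 0.18, limma adjusted p = 1.8e-06), 0.82 (SE 0.18, limma adjusted p = 0.0015) and -0.77 (SE 0.20, limma adjusted p = 0.0043) in the 3 comparisons. The gene Tpsg1 overlaps its 3′ end on the other strand, with the same limit as for Itpr3, and short antisense overlaps are also annotated for Itpr1 (Gm44040) and at the start of Orai1 (Gm2479). Of the related T-type genes, Cacna1i was at 0.635, 0.105 and 0.374 FPKM and Cacna1g at 0.127 FPKM or below in every library.

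Camk2g encodes CaMKII gamma, the kinase that reads the calcium rises in the egg. It was at 78.0 and 59.9 FPKM in GV, at 25.5, 17.0 and 21.0 FPKM in MII with DMSO and at 45.4 and 40.2 FPKM in MII with BYBX. The groups were separate, with 30.7% and 62.1% of the GV level left. The change of Camk2g was -1.66 (SE 0.26, limma adjusted p = 4.1e-05) from GV to MII with DMSO and 0.996 (SE 0.26, limma adjusted p = 0.0047) from DMSO to BYBX. Against GV the BYBX libraries were at -0.67, with an adjusted p of 0.054 that came to 0.042 without GV library 2 in limma. Camk2g made up at least 99.4% of the FPKM of the CaMKII genes in every library, so that it was nearly the sole transcript of the family.

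The order of the members by FPKM, which is a level per transcript length, was not the same in the 3 groups. In GV it ran Atp2a2, Camk2g, Orai1, Atp2b1, Itpr2, Trpm7, Itpr1, Cacna1h, Stim1 and Itpr3, and Itpr1 and Cacna1h were the neighbours whose libraries overlapped. In MII with DMSO Camk2g, Atp2a2 and Atp2b1 led with overlapping libraries, followed by Itpr2, Itpr1 and Trpm7, while Orai1 stood at place 7 and overlapped Cacna1h, as Stim1 overlapped Itpr3. In MII with BYBX the order was Atp2a2, Camk2g, Atp2b1, Orai1, Itpr2, Itpr1, Trpm7, Cacna1h, Stim1 and Itpr3, with overlap between Atp2b1 and Orai1 and between Trpm7 and Cacna1h. Orai1 was thus the member that changed places most, from 3 in GV to 7 and then to 4.

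The genes with a profile over the 7 libraries most like that of Itpr1, by Euclidean distance of mean-centred log2(FPKM + 1) among 9100 genes, were Agbl3 (distance 0.096), Galnt1 (0.165), Ccdc82 (0.171), Fam122b (0.174) and Vma21 (0.180). Agbl3 stood at 2.38, 1.12 and 1.60 FPKM in the 3 groups, beside 2.82, 1.42 and 1.85 FPKM for Itpr1.

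At the 3′ end, a poly(A) signal (AATAAA or ATTAAA) was found in the last 100 bases of the longest coding transcript in 10 of 10 members, against 81.9% of tested genes. A cytoplasmic polyadenylation element, the letters TTTTAT or TTTTAAT, can mark a transcript for tail lengthening in maturing oocytes. It was found in that window in 2 of 10 members, Atp2a2 and Atp2b1, near the 20.2% of tested genes. Other coding transcripts of the members were not searched for it. These pump genes held 16.0% and 71.5% of their GV level in MII with DMSO, and a link between element and level was not tested.

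Around the members, 161 other genes of calcium handling were taken from 7 lists, and 69 of them were tested. Between GV and MII with DMSO, 62 of the 69 were lower in limma and none higher, also at an unadjusted p under 0.05, with a median of -2.04, and 88.3% of all entries were lower. With BYBX, 47 were higher than with DMSO and none lower by the same criteria, with a median of 0.996, and 48 were lower than in GV, beside 65.2% and 69.2% of all entries. These counts lay near the background of all entries. At the same total FPKM the counts were 17 higher and 35 lower for MII with DMSO against GV and 32 higher and 7 lower for BYBX against DMSO, beside 23.3%, 49.5%, 39.9% and 8.22% of all entries. With median centring they were 28 higher and 18 lower, and 14 higher and 28 lower, beside 48.8%, 26.7%, 18.4% and 43.9% of all entries.

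**Figure D4:**
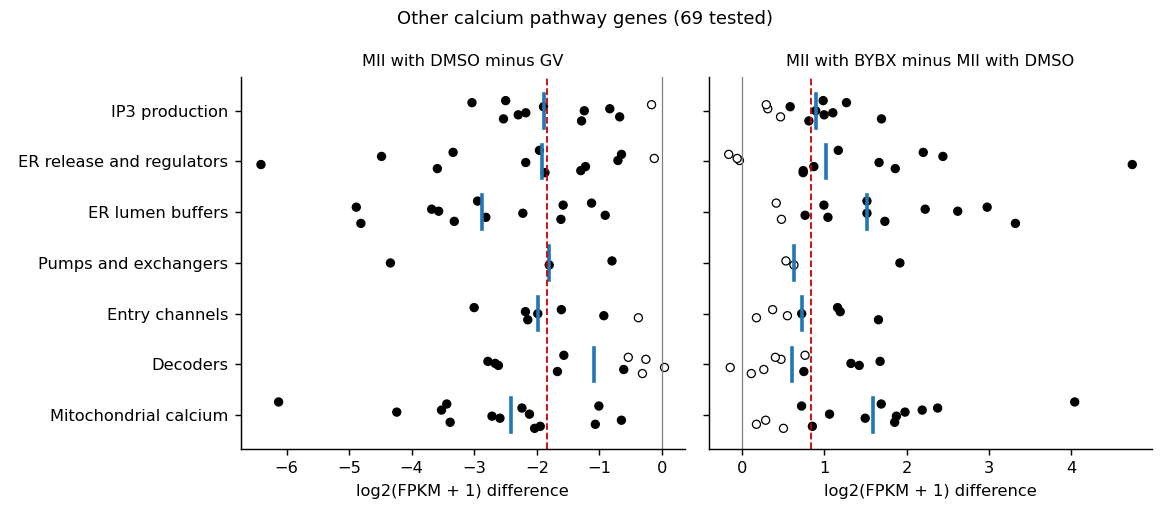
Change of log2(FPKM + 1) of the 69 tested genes of 7 calcium lists between MII with DMSO and GV (left) and between MII with BYBX and MII with DMSO (right). Each point is a gene, filled where the limma adjusted p was under 0.05; blue bars are list medians and the dashed red line is the median of all entries; the ER lumen list has the lowest median on the left, and Calm2 (-6.41) and Vdac3 (-6.13) lie farthest out.

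Genes of IP3 production were lower in MII with DMSO for 10 of 11 tested (88.3% of all entries). With BYBX 8 of 11 were higher than with DMSO (65.2% of all entries). Plce1, a phospholipase C gene, went from 28.2 ± 8.49 FPKM (SD, n = 2) in GV to 2.49 ± 0.308 (SD, n = 3) in MII with DMSO and 7.43 ± 1.23 (SD, n = 2) with BYBX. Gna14, a G protein subunit gene of the Gq class, went from 14.9 to 1.74 and 7.91 FPKM. Plcb3, another phospholipase gene, was at 1.39, 1.16 and 1.73 FPKM and passed neither test (limma adjusted p = 0.55 and 0.32). Plcz1, the sperm enzyme gene, was listed at 0 in every library.

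Among regulators of the release channel, 11 of 12 fell from GV to MII with DMSO (88.3% of all entries). From DMSO to BYBX 9 of 12 rose (65.2% of all entries). Calm2, a gene for the calcium sensor calmodulin, which binds CaMKII, was at 191 ± 17.8 FPKM (SD, n = 2) in GV, 1.32 ± 0.667 (SD, n = 3) in MII with DMSO and 60.3 ± 13.8 (SD, n = 2) with BYBX. Its groups did not overlap, and the log2 change of Calm2 from GV to MII with DMSO was -6.41 (limma adjusted p = 3.8e-10). Itprip, which encodes a protein that binds IP3 receptors, fell by 4.48 on the log2 scale, from 26.1 to 0.146 FPKM, and stood at 5.38 FPKM with BYBX. Itprid2 was at 4.33, 3.93 and 3.67 FPKM (limma adjusted p = 0.64 and 0.83), and Lrmp fell by 0.65 in MII with DMSO and was not called between DMSO and BYBX (limma adjusted p = 0.54).

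Genes of calcium buffers and chaperones in the ER lumen were lower in MII with DMSO in 12 of 12 tested (88.3% of all entries), with a list median of -2.88. With BYBX 10 of 12 were higher (65.2% of all entries). With median centring 4 were higher and 6 lower in MII with DMSO (48.8% and 26.7% of all entries). In BYBX against DMSO 4 were then higher and 3 lower (18.4% and 43.9% of all entries). Calr encodes calreticulin, the main calcium buffer of the ER, and went from 252 ± 39.1 FPKM (SD, n = 2) in GV to 8.35 ± 3.23 (SD, n = 3) in MII with DMSO and 91.6 ± 34.1 (SD, n = 2) with BYBX. Hsp90b1, an ER chaperone gene, went from 119 to 24.7 and 74.3 FPKM, and Pdia4, a disulfide isomerase gene, from 89.9 to 2.06 and 23.0 FPKM. Erp44 changed by -0.91 and 0.77 on the log2 scale (limma adjusted p = 0.0043 and 0.018). Rcn2 changed by -1.13 (limma adjusted p = 0.0011), with 0.42 between DMSO and BYBX (limma adjusted p = 0.17).

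Other pump and exchanger genes were few at the tested level. Of these, 3 of 3 were lower in MII with DMSO and 1 of 3 higher with BYBX, beside 88.3% and 65.2% of all entries. Atp2c1 and Atp2c2 encode calcium and manganese pumps of the secretory pathway. Atp2c1 went from 54.6 to 14.7 and 23.1 FPKM and Atp2c2 from 42.5 to 1.08 and 7.07 FPKM, of which only the rise of Atp2c2 with BYBX passed the test among the 3 genes. Slc24a3, an exchanger gene, was at 5.28, 2.64 and 4.23 FPKM.

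Of the other entry genes 6 of 7 were lower in MII with DMSO and 4 of 7 higher with BYBX, beside 88.3% and 65.2% of all entries. Saraf, which encodes a brake on STIM and ORAI, remained abundant at 204 ± 33.6 FPKM (SD, n = 2) in GV, 106 ± 7.15 (SD, n = 3) in MII with DMSO and 158 ± 34.1 (SD, n = 2) with BYBX. Trpv2, a cation channel gene, went from 8.13 to 0.134 and 1.58 FPKM. Cacnb3, a subunit gene of voltage-gated channels, went from 5.37 to 0.439 and 4.01 FPKM. Trpv3, whose product is a known calcium channel of mature mouse eggs, was below the tested level, at 0.860, 0.060 and 0.361 FPKM.

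Among genes that act on the calcium signal in the cytosol, 6 of 10 were lower in MII with DMSO (88.3% of all entries). With BYBX 4 of 10 were higher (65.2% of all entries). The list median of -1.09 between GV and MII with DMSO was nearer 0 than that of all entries. Wee2 and Fbxo43 (Emi2) encode regulators of the metaphase II arrest that CaMKII acts on. Wee2 was at 151, 49.7 and 82.8 FPKM and Fbxo43 at 64.1, 40.9 and 49.5 FPKM, with log2 changes from GV to MII with DMSO of -1.57 and -0.61 (limma adjusted p = 5.4e-04 and 0.046). The calcineurin subunit genes differed, with Ppp3ca at 1.07, 1.14 and 0.917 FPKM and Ppp3r1 at 38.2, 5.14 and 13.9 FPKM. Prkcd, a protein kinase C gene, went from 9.74 to 0.477 and 3.71 FPKM, and Rcan1, a calcineurin inhibitor gene, was at 10.2, 8.49 and 13.2 FPKM and was not called (limma adjusted p = 0.46 and 0.21).

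Mitochondrial calcium genes were lower in MII with DMSO in 14 of 14 tested and higher with BYBX in 11 of 14, beside 88.3% and 65.2% of all entries. With median centring 3 were higher and 5 lower in MII with DMSO (48.8% and 26.7% of all entries). In BYBX against DMSO 6 were then higher and 4 lower (18.4% and 43.9% of all entries). Vdac3, an outer membrane channel gene, went from 252 ± 14.0 FPKM (SD, n = 2) in GV to 2.62 ± 0.278 (SD, n = 3) in MII with DMSO and 59.1 ± 10.3 (SD, n = 2) with BYBX. The uniporter pore gene Mcu and the gene of its inhibitory partner, Mcub, moved unequally, with Mcu at 131, 61.0 and 69.8 FPKM and Mcub at 167, 14.9 and 56.7 FPKM. Rmdn3, a gene for an ER contact protein, went from 51.6 to 1.78 and 9.85 FPKM, Smdt1, a uniporter subunit gene, from 11.6 to 1.59 and 12.8 FPKM, and Mcur1 from 7.56 to 4.43 and 5.65 FPKM.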

How the data were processed

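Libraries of 10 oocytes were made by Smart-seq2 with oligo-dT primers and an ERCC spike-in. Per the study's methods and the submitters' processing notes, the authors trimmed reads with Trim Galore 0.6.7, aligned them to mm10 with HISAT2 2.2.1, computed FPKM with Cufflinks 2.2.1 on UCSC gene models, and deposited FPKM normalized to the spike-in and, between batches, to GV samples. The factors and the batch of each library are not given in the sources used here, so a batch cannot be told apart from a group. Of 25912 entries, 4 with a missing value were left out. Values are estimates without whole reads, so depth is unknown and precision is that of 2 or 3 libraries.

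Groups came from the labels. Limma 3.58.1 (R 4.3.3; lmFit, eBayes with intensity trend) was run on log2(FPKM + 1) for 9202 entries that averaged 1 FPKM or more over the 3 group means, with 7 libraries in 1 model (4 residual degrees of freedom), Benjamini-Hochberg adjustment and a threshold of 0.05. The fit was tested on simulated data in which few entries changed, in both directions, without the shift of most entries seen in these libraries. Family shares were compared by exact two-sided permutation tests. The members and lists were chosen with earlier results of these data known. Outside the members, genes were named by rule, which took from each list the highest GV means and the most extreme changes relative to the median, beside paralogs of the members; Trpv3, Plcz1, the overlapping genes and the marker genes were named beyond it, and 1 gene that the rule picked is not reported here. Positions and transcripts are from GENCODE vM21 (GRCm38), in which 95.6% of 9154 tested names matched a coding transcript. The settings varied were the pseudocount (0.1), the filter (5 FPKM, or none), the scaling (equal library totals, or centring on the median), the model (2 groups at a time, a replicate block, no trend), shares from FPKM + 0.1, and each library left out. Python 3.11.15 with numpy 2.4.6, pandas 2.3.3, scipy 1.17.1 and matplotlib 3.10.9 was used.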

Additional observations from a re-analysis of the deposited data

How the results depend on the processing

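The scaling decided most directions. At the same total FPKM, of 8 members 3 and 3 were called higher and lower for MII with DMSO against GV. With BYBX against DMSO 3 and 1 were, and with BYBX against GV 0 were lower. Of 69 other calcium genes 17 and 35 were called, then 7 lower with BYBX against DMSO, and 4 and 10 against GV. Of all 9202 entries, 2141 and 4557, 3672 and 756, and 488 and 1222 were called higher and lower in the 3 comparisons. With median centring the members were 6 and 1, 1 and 5, and 2 and 0, and the calcium genes 28 and 18, 14 and 28, and 15 and 10. All entries then gave 4494 and 2456, 1696 and 4040, and 1397 and 1250 of 9202. A filter at 5 FPKM, which tests fewer genes, gave 4, 3 and 2 of 5 members, beside 4842, 3686 and 3779 of 5508 entries. With it 40 calcium genes were lower in MII with DMSO and 31 higher with BYBX against DMSO. Without a filter, which tests more genes, 104 calcium genes were lower in MII with DMSO and 1 was higher with BYBX than in GV. All entries then gave 12025 and 58 of 18497.

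Members whose log2 change turned sign at the same total FPKM were Itpr1 (0.60), Itpr2 (0.86), Atp2b1 (1.31) and Camk2g (0.17) for MII with DMSO against GV, Itpr1 (-0.36), Itpr2 (-0.57) and Atp2b1 (-0.67) for BYBX against DMSO, and Itpr1 (0.24), Itpr2 (0.29), Atp2b1 (0.64) and Camk2g (0.31) for BYBX against GV. With median centring they were Itpr1 (1.64), Itpr2 (1.49), Atp2b1 (1.83), Trpm7 (0.85), Cacna1h (0.72) and Camk2g (0.64), then Itpr1 (-1.04), Itpr2 (-1.06), Atp2b1 (-1.09), Trpm7 (-0.66), Cacna1h (-0.46) and Camk2g (-0.28), and then Itpr1 (0.60), Itpr2 (0.44), Atp2a2 (0.045), Atp2b1 (0.74), Trpm7 (0.19), Cacna1h (0.26) and Camk2g (0.36). The cause was not tested.

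Leaving out each library in turn gave 6 to 7, 4 to 5 and 3 to 4 members called in the 3 comparisons, and for BYBX against DMSO a change of -0.064 to 0.365 for Itpr2 and of -0.020 to 0.392 for Atp2b1. Across these fits 158 member values kept their direction and their side of the threshold, 7 lost the threshold, 1 gained it and 2 turned sign. The count includes fits in which the library left out belonged to neither group compared. In those fits the log2 change could not move, and only its p-value could. With the replicate block Orai1 changed by -5.39 and Atp2a2 by -2.88 between GV and MII with DMSO, and the block changed none of the 24 member calls. Replicate number 3 occurs only with DMSO, so with the block that library did not enter the log2 changes. Deviations of same-numbered libraries from their group mean correlated at 0.487 and 0.282, at -0.601 and -0.348, and at -0.33 in the 3 comparisons. In a group of 2 libraries the deviations mirror each other, so the last comparison holds a single value. The labels tie the numbers to no shared mouse, day or batch. A pseudocount of 0.1, fits of 2 groups and the block kept all 24 member calls.

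Family shares computed from FPKM + 0.1 differed from GV in MII with DMSO by -0.736 percentage points for Itpr3, -1.08 for Atp2a2, 2.76 for Stim1, 1.14 for Trpm7 and -0.708 for Camk2g. Between BYBX and DMSO they differed by 0.893 for Atp2a2, -1.15 for Trpm7 and 0.419 for Camk2g, and between BYBX and GV by -0.187 for Atp2a2. Without the added 0.1 the difference of MII with DMSO from GV had the opposite sign for Stim1 (-0.668), Camk2g (0.280) and Atp2a2 (0.00578). So had that of Camk2g between BYBX and DMSO (-0.314) and that of Atp2a2 between BYBX and GV (0.00578). These families hold members near 0, where depth is unknown and an added 0.1 FPKM weighs most.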

Other observations

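Calcium rises trigger the release of cortical granules and the zinc spark in the egg, and 13 of 22 genes listed around these steps were tested. The list also holds genes of other egg functions, such as Izumo1r. In MII with DMSO 12 of the 13 were lower than in GV in limma (88.3% of all entries). With BYBX 8 of the 13 were higher than with DMSO (65.2% of all entries). Medians were -1.57 and 1.06 beside -1.83 and 0.84 for all entries. Astl encodes ovastacin, the granule protease that cleaves ZP2. It was at 423 ± 66.7 FPKM (SD, n = 2) in GV, 172 ± 43.4 (SD, n = 3) in MII with DMSO and 354 ± 58.3 (SD, n = 2) in MII with BYBX. Izumo1r encodes JUNO, the sperm receptor on the egg surface, and went from 408 ± 59.8 FPKM to 16.7 ± 4.15 and 135 ± 29.0 FPKM. Rab27a, which encodes a GTPase of secretory granules, went from 27.8 to 2.03 and 7.80 FPKM. Slc30a4, a zinc transporter gene, was at 5.63, 5.32 and 4.33 FPKM and was not called in MII with DMSO against GV or with BYBX against DMSO (limma adjusted p = 0.63 and 0.67).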
